A study of Mus musculus with 9 samples.

Results

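The Ndufa4l3-miR147 knockout was set directly against the Ndufa4 knockout in macrophages treated with interferon-gamma. Members of the comparison were all genes that reached at least 1 TPM (a length-corrected share of all transcripts in a library) in at least 3 of the 6 knockout libraries. Of 29763 named genes, 10899 met this rule. Of the others, 9487 were listed at 0 in all 6 libraries and 9377 had values that fell short of the rule. The closest genes inside it, 5430403G16Rik and Tmem92, had third-highest values of 1.00041 and 1.00177 TPM. Outside it, Tmtc2 and Mipol1 had 0.996594 and 0.996424 TPM.

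The series profiled polyadenylated RNA of bone marrow-derived macrophages from mice of 3 genotypes with 3 libraries each. Marrow cells were grown for 7 days in medium with 30% L929 supernatant, which supplies the growth factor of macrophages, and then received 40 ng/ml interferon-gamma for 12 h. Both knockout groups are labelled as null for their locus, Ndufa4l3-miR-147-/- (also called Nmes1-deficient) and Ndufa4-/-, and wild type served in the model only to help estimate the spread and as a point of reference. All groups received interferon-gamma, so no library shows untreated cells. The labels call the replicates technical, and p-values therefore measure only the spread between libraries. The sources used here do not give strain, age, sex or the number of mice.

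Ndufa4 is a small protein bound to complex IV, the cytochrome c oxidase that passes electrons to oxygen at the end of the respiratory chain. Ndufa4l3 is a related protein that is induced in inflammatory macrophages and can take the place of Ndufa4, and its gene also carries the microRNA miR-147. Interferon-gamma drives antigen presentation and host defence genes in macrophages, many of which also respond to type I interferon.

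One library stood apart before any test. Ndufa4 knockout replicate 3 lay at 37.2 on the first principal component of the 6 knockout libraries, which held 46.5% of the variance, and the other 5 lay between -14.5 and -0.83. The upper quartile of its values was 7.79 TPM, below the 9.24 to 9.84 TPM of the other 8 libraries. Genes with long transcripts were low in it. Across 10838 genes with an annotated length, which are not independent, Spearman's rho between transcript length and the difference between the knockouts was 0.25 with this library and 0.022 without it. Results are therefore also given without Ndufa4 knockout replicate 3, written as Ndufa4KO3. The files hold no read counts, so sequencing depth is unknown. In bulk RNA a lower level can mean fewer cells of a type or less RNA per cell, and these cannot be told apart.

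The 2 knockouts differed in 370 of the 10899 genes, 3.39% of those tested (limma on log2(TPM + 1), Benjamini-Hochberg adjusted p under 0.05, two-sided). In the Ndufa4l3-miR147 knockout 253 genes, 2.32%, were higher than in the Ndufa4 knockout, and 117, 1.07%, were lower. Most differences were small. The median size among called genes was 0.44 on the log2 scale, or 1.35-fold, and 18 genes, 0.165%, differed at least 2-fold, 12 higher and 6 lower. The libraries of the 2 knockouts did not overlap for any of the 370 called genes, against 25.4% of all genes tested. Throughout, differences are Ndufa4l3-miR147 knockout minus Ndufa4 knockout on the log2(TPM + 1) scale, which understates those of genes with low TPM, and are given ± SE with 3 libraries per knockout.

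**Figure D1:**
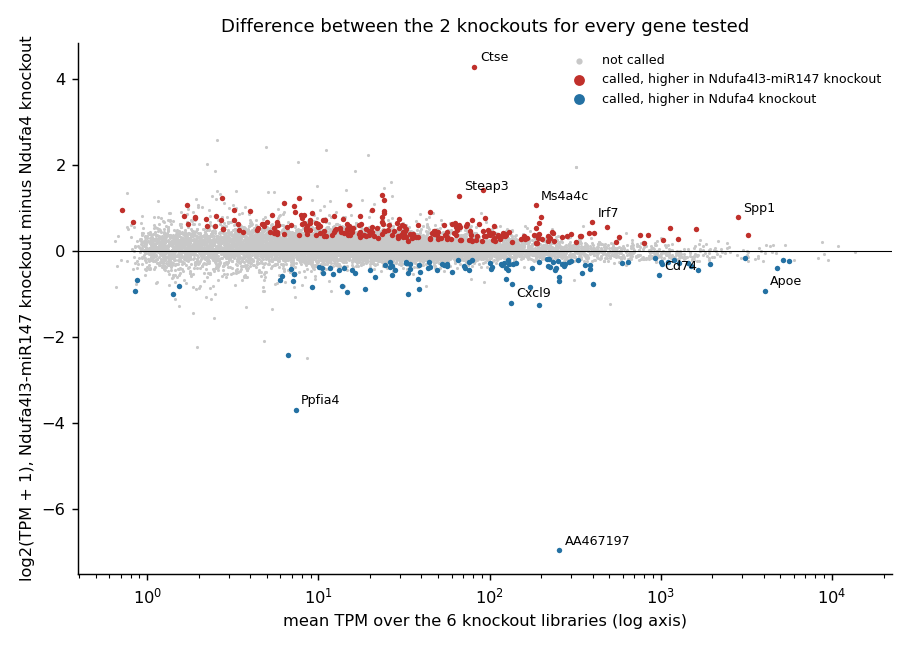
Difference between the knockouts (log2(TPM + 1), Ndufa4l3-miR147 knockout minus Ndufa4 knockout) against mean TPM over the 6 knockout libraries (log axis), 1 point per gene for 10899 genes. Red points are the 253 genes called higher and blue points the 117 called lower in the Ndufa4l3-miR147 knockout. Ctse, Ppfia4 and AA467197 lie far outside the other called genes, most of which lie within 1 log2 unit of 0.

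The number of calls depended strongly on which libraries were in the model. Without Ndufa4KO3 it was 751, or 6.89% (504 higher, 4.62%, and 247 lower, 2.27%), and these included 363 of the 370. It was 85, 101 and 98 without Ndufa4l3-miR147 knockout replicates 1, 2 and 3, and 186, 177 and 201 without wild-type replicates 1, 2 and 3. With only the 6 knockout libraries, where wild type does not inform the spread, 64 genes were called, 42 higher and 22 lower. A total of 69 genes were called in every one of the 9 models that left out 1 library, 39 higher and 30 lower. The balance of directions depended on scaling: 68.4% of the called genes were higher with TPM as deposited, 49.2% after median-of-ratios scaling (307 calls, 2.82%, of which 151 higher, 1.39%, and 156 lower, 1.43%), 51.5% after quantile normalization and 49.7% after removal of the length trend. The median difference of all genes was 0.07, and it was 0.03 without Ndufa4KO3. An unadjusted p under 0.05 was reached by 20.6% of all genes, by 23.4% without Ndufa4KO3 and by 14.4% with the 6 knockout libraries alone.

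**Figure D2:**
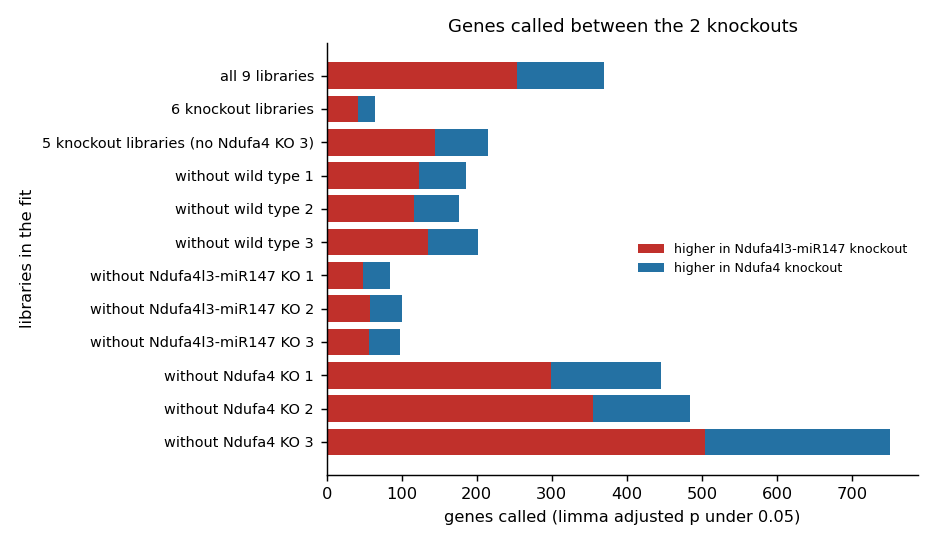
Genes called between the 2 knockouts (limma adjusted p under 0.05) for each set of libraries in the model, with genes higher in the Ndufa4l3-miR147 knockout in red and genes higher in the Ndufa4 knockout in blue. Counts ran from 64 with the 6 knockout libraries alone to 751 without Ndufa4 knockout replicate 3.

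The targeted gene separated the groups. AA467197, the symbol under which Ndufa4l3 is listed (ENSMUSG00000033213.16, GRCm38 chromosome 2, 122636986 to 122641191, plus strand), was at 2.90, 2.21 and 4.50 TPM in its own knockout and at 527, 472 and 519 TPM in the Ndufa4 knockout. Wild type lay between 355 and 365 TPM. The difference was -6.95 ± 0.16 (limma adjusted p = 8.4e-08), and -6.93 ± 0.18 without Ndufa4KO3. Every library labelled as an Ndufa4l3-miR147 knockout was thus far below every library labelled as an Ndufa4 knockout. Ndufa4 itself was listed at 0 TPM in all 3 Ndufa4 knockout libraries and at 0, 0.621 and 0 TPM in the other knockout. Since wild-type Ndufa4 was listed at 0 to 0.303 TPM, these entries check nothing about the Ndufa4 label. The third relative, Ndufa4l2, varied within both groups, from 2.80 to 7.47 TPM and from 0.544 to 4.45 TPM, and was not called (0.85 ± 0.81, limma adjusted p = 0.57, and 0.31 without Ndufa4KO3).

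The knockout of the Ndufa4l3 locus also removes miR-147. Its 5p arm lies inside the gene, at GRCm38.p6 chromosome 2, 122640814 to 122640837, plus strand, per RefSeq. It is shown because its seed, bases 2 to 8 in capitals, decides which transcripts it could pair with.
mmu-miR-147-5p: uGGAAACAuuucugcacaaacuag
The 3p arm was not used here, so the matches below do not cover transcripts that it could pair with, and they say nothing about its targets. An 8-base match to this seed, TGTTTCCA, was present in the longest annotated 3′ UTR of 705 of the 10494 genes that have one. Of these, 15 were called (12 higher and 3 lower, 2.13%). A 7-base match alone, TGTTTCC or GTTTCCA, was present in 2021 genes, of which 72 were called (56 higher and 16 lower, 3.56%). With neither match, 277 of 7768 genes were called (180 higher and 97 lower, 3.57%). The median difference was 0.12 for both kinds of match and 0.06 for no match, and 0.02, 0.03 and 0.03 in that order without Ndufa4KO3. The UTRs with a match were longer, with a median of 2567 and 2294 bases against 865.5, and the part of length in these medians was not tested. Without Ndufa4KO3 the 3 groups had 28, 95 and 371 genes called higher and 12, 41 and 191 called lower. Whether the shares of called genes differ was not tested. Wdfy1 and Kif21b were called higher among the genes with an 8-base match, and 5430435G22Rik and Naaa were called lower. Against wild type, Wdfy1 differed by 0.33 in the Ndufa4l3-miR147 knockout and by -0.98 in the Ndufa4 knockout, and Naaa by -0.11 and 0.59. For both genes only the Ndufa4 knockout was called against wild type (limma adjusted p = 0.0052 and 0.012).

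The largest difference after the targeted gene was in Ctse, which encodes cathepsin E, an aspartic protease of the endosomes. It was at 163, 152 and 152 TPM with Ndufa4l3-miR147 knocked out and at 8.22, 7.86 and 5.49 TPM with Ndufa4 knocked out, with wild type at 64.4 to 65.6 TPM between them. The 2 knockouts thus lay on either side of wild type with no overlap. The difference was 4.27 ± 0.12 (limma adjusted p = 2.2e-07), and 4.12 ± 0.05 without Ndufa4KO3. Ppfia4, a liprin scaffold protein, went the other way. It was at 0.29, 0.12 and 0.20 TPM with Ndufa4l3-miR147 knocked out and at 14.3, 14.9 and 14.5 TPM with Ndufa4 knocked out, close to the 10.4 to 13.5 TPM of wild type. The difference was -3.69 ± 0.11 (limma adjusted p = 2.9e-07), and -3.70 ± 0.12 without Ndufa4KO3. Steap3, an endosomal ferrireductase that readies iron for export to the cytosol, was at 91.3, 96.2 and 96.1 TPM against 37.2, 39.4 and 37.9 TPM, a difference of 1.29 ± 0.05 (limma adjusted p = 2.2e-06), and 1.28 without Ndufa4KO3. Its wild-type libraries were at 59.6 to 60.9 TPM, again between the knockouts.

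Among the other genes higher in the Ndufa4l3-miR147 knockout, Wdfy1, an endosomal adaptor, differed by 1.31 ± 0.14, and by 1.14 ± 0.09 without Ndufa4KO3. Lipg, which encodes endothelial lipase, was at 32.5 to 34.9 TPM against 13.1 to 15.6 TPM (1.17 ± 0.08, limma adjusted p = 0.00017, and 1.11 without Ndufa4KO3). Cxcr4, the receptor for the chemokine CXCL12, was at 18.9 to 22.4 against 8.66 to 10.3 TPM (1.07 ± 0.09, 1.01 without Ndufa4KO3). Its wild-type libraries were above both knockouts, at 24.6 to 26.1 TPM. The E3 ligase gene Mid1 was at 27.4 to 27.7 against 13.4 to 14.2 TPM (0.95 ± 0.07, 0.97 without Ndufa4KO3). All 4 were called in each of the 19 alternative models set up for this comparison. Mmp13, a collagenase, was at 29.7 to 32.8 TPM against 15.2 to 18.7 TPM (0.88 ± 0.09, limma adjusted p = 0.0017, and 0.82 without Ndufa4KO3). Inpp4b, a phosphoinositide phosphatase (1.22 ± 0.20, 0.97 without Ndufa4KO3), Tnfsf8, which encodes CD30 ligand (0.94 ± 0.16, 0.74 without Ndufa4KO3), and Cd33, a sialic acid receptor (0.91 ± 0.13, 0.96 without Ndufa4KO3), were called in the full model. Inpp4b and Tnfsf8 lost the call without any one of Ndufa4l3-miR147 knockout replicates 1, 2 and 3, and Cd33 without replicate 2 or 3 of that knockout.

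On the other side, Bst1, a cell-surface enzyme that cleaves NAD, was at 22.04, 20.8 and 22.2 TPM with Ndufa4l3-miR147 knocked out and at 48.2, 42.2 and 44.1 TPM with Ndufa4 knocked out. Wild type, at 24.5 to 25.5 TPM, lay near the former. The difference was -1.01 ± 0.07 (limma adjusted p = 0.00016), and -1.02 ± 0.07 without Ndufa4KO3. Col18a1, the gene of a basement membrane collagen, was at 9.39 to 9.91 TPM against 18.8 to 20.5 TPM (-0.97 ± 0.07, -0.997 without Ndufa4KO3). Gpr84, a receptor for medium-chain fatty acids, was at 5.57 to 6.64 TPM against 11.0 to 12.8 TPM (-0.84 ± 0.11, -0.83 without Ndufa4KO3). Clec7a, the β-glucan receptor Dectin-1, was at 95.1 to 103 TPM against 135 to 195 TPM. Its difference was -0.76 ± 0.12, and -0.93 ± 0.06 without Ndufa4KO3, the lowest of the Ndufa4 knockout libraries for this gene, and the call was lost without any one of Ndufa4l3-miR147 knockout replicates 1, 2 and 3. Itgax, which encodes CD11c, was at 4.03 to 4.90 against 6.75 to 8.13 TPM (-0.68 ± 0.11, -0.76 without Ndufa4KO3) and lost its call without replicate 1 or 3 of the Ndufa4l3-miR147 knockout.

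**Figure D3:**
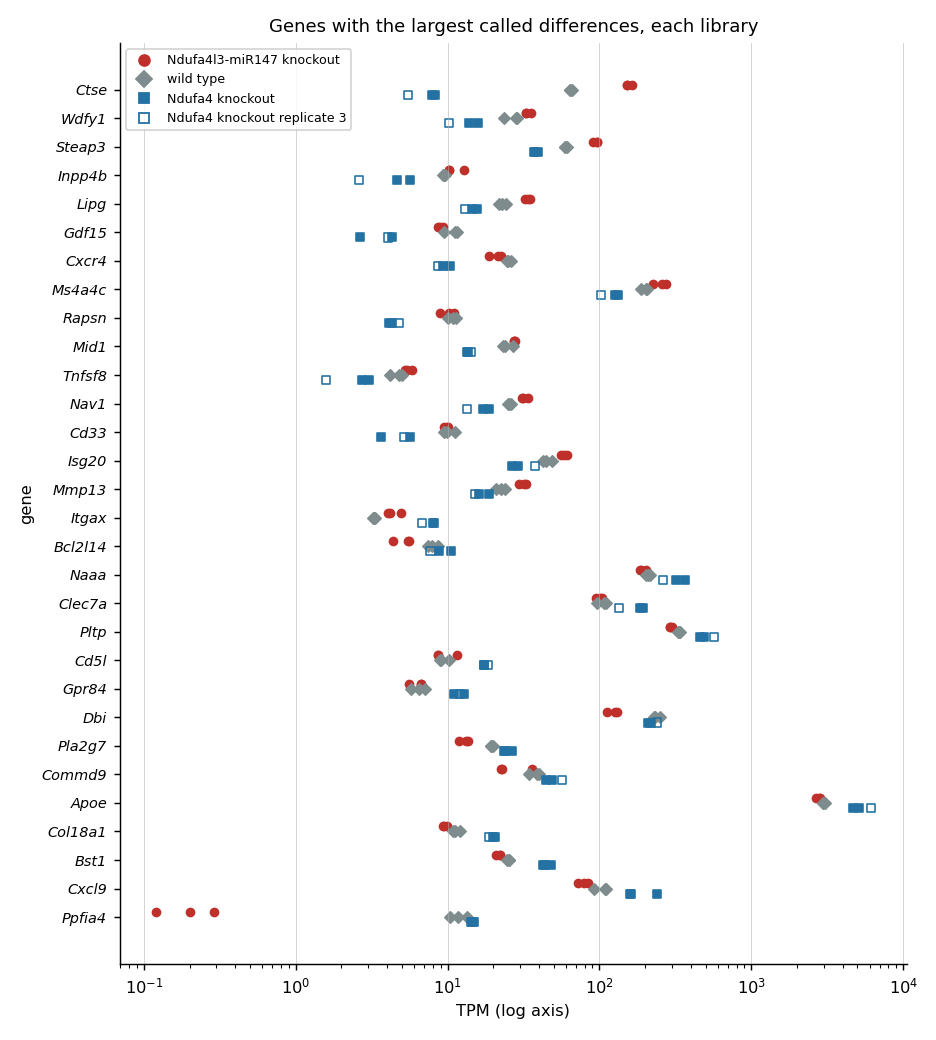
TPM (log axis) of the named genes with the largest called differences in each direction, 1 symbol per library: red circles for the Ndufa4l3-miR147 knockout, grey diamonds for wild type and blue squares for the Ndufa4 knockout, with its replicate 3 as an open square. For each of these genes the knockout libraries do not overlap, and for Ctse and Steap3 wild type lies between them.

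Many genes that respond to type I interferon were higher in the Ndufa4l3-miR147 knockout than in the Ndufa4 knockout. Summed over the 73 listed genes, wild type was at 18353 to 19249 TPM. The Ndufa4l3-miR147 knockout lay just above it, at 19450 to 19645 TPM, and the Ndufa4 knockout further below, at 15399 to 16150 TPM. Of 72 listed genes kept, 22 were called higher, 1 was called lower and 49 were not called, where 2.32% of all genes were called higher and 1.07% lower. The median difference was 0.35, against 0.07 for all genes, and the knockout libraries did not overlap for 55 of the 72, where 25.4% of all genes did not overlap. Without Ndufa4KO3, 29 were called higher and 1 lower, with a median of 0.24 against 0.03. With the 6 knockout libraries alone 7 were called higher and none lower (limma, 50 at an unadjusted p under 0.05 in either direction), where 0.587% of all genes were called. After median-of-ratios scaling there were 16 higher and 1 lower.

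Irf7, the transcription factor that amplifies interferon responses, was at 473, 484 and 505 TPM with Ndufa4l3-miR147 knocked out and at 305, 285 and 331 TPM with Ndufa4 knocked out, with wild type at 388 to 405 TPM. The difference was 0.67 ± 0.06 (limma adjusted p = 0.00082), and 0.72 ± 0.04 without Ndufa4KO3. The exonuclease gene Isg20 was at 55.5, 61.3 and 58.1 TPM against 26.4, 28.9 and 37.6 TPM (0.91 ± 0.12, 1.05 without Ndufa4KO3), and the membrane protein gene Ms4a4c at 224, 257 and 273 TPM against 126, 132 and 103 TPM (1.06 ± 0.10, 0.95 without Ndufa4KO3). In all 3 genes every Ndufa4l3-miR147 knockout library exceeded every Ndufa4 knockout library. Together with Lgals3bp (0.37 ± 0.04, 0.40 without Ndufa4KO3) and Lgals9 (0.32 ± 0.04, 0.31 without Ndufa4KO3) they were the 5 members called in every model that left out 1 library. The other called members included Isg15, the ubiquitin-like modifier, at 620 to 643 TPM against 481 to 529 TPM (0.33 ± 0.06, 0.32 without Ndufa4KO3). Rsad2, which encodes viperin, was at 87.4 to 88.4 TPM against 52.5 to 61.6 TPM (0.59 ± 0.11, 0.51 without Ndufa4KO3). Isg15 lost its call without any one of Ndufa4l3-miR147 knockout replicates 1, 2 and 3, and Rsad2 without these or wild-type replicate 2. Without Ndufa4l3-miR147 knockout replicate 1, 2 or 3 the list had 6, 8 and 6 members called higher, without Ndufa4 knockout replicate 1, 2 or 3 it had 33, 21 and 29, and without wild-type replicate 1, 2 or 3 it had 17, 13 and 17.

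The difference was above 0 for 67 of the 72, where 66.2% of all genes were above 0. Ifi27 was the 1 gene called lower, at 26.0 to 31.5 TPM against 41.1 to 51.9 TPM (-0.66 ± 0.10, limma adjusted p = 0.012, and -0.58 without Ndufa4KO3), a call lost without replicate 1 or 3 of the Ndufa4l3-miR147 knockout. Stat2, a transcription factor of the type I interferon pathway, was called higher (0.36 ± 0.06, 0.30 without Ndufa4KO3) unless 1 of the Ndufa4l3-miR147 knockout libraries was left out. The RNA sensor genes Ddx58 (0.60) and Ifih1 (0.48) were not called with all libraries, and their differences were 0.37 and 0.25 without Ndufa4KO3. Members of the Oas, Ifit, Ifitm and Ms4a families have close copies that can share reads, so single values within them are uncertain.

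**Figure D4:**
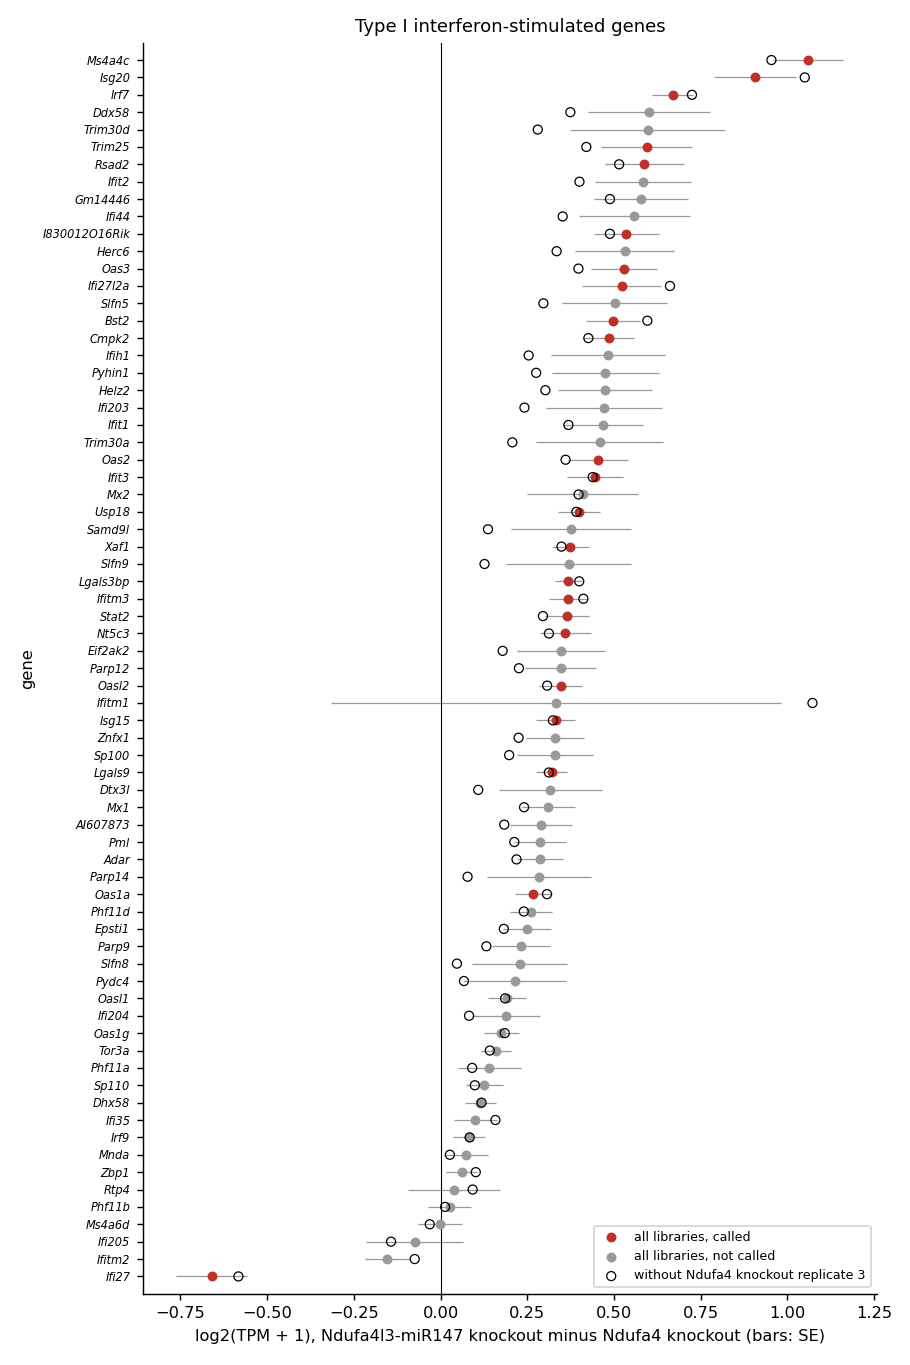
Difference between the knockouts for 72 type I interferon-stimulated genes, all but 1 of which are drawn (log2(TPM + 1), Ndufa4l3-miR147 knockout minus Ndufa4 knockout). Filled points are the model of all libraries with SE bars, red where called, and open circles are the differences without Ndufa4 knockout replicate 3. Most points lie right of 0 in both, and many open circles lie closer to 0 than their filled points.

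The promoters of these genes are known for the interferon-stimulated response element. Its core was searched on both strands as GAAANNGAA, in windows from 250 bases before to 50 bases after the gene's start in RefSeq (GRCm38.p6). It was held by 8.56% of 32851 promoters of this length, and of the 8155 tested genes matched to a promoter 8.95% did. Among the type I interferon-stimulated genes it was present in 28 of 51 matched promoters, 54.9%, and in 10 of the 18 called higher. These 6 windows of 39 bases show a match before the start in genes called higher. They are written in the direction of the gene, with a match in capitals. On the opposite strand the core reads TTCNNTTTC. The windows of Bst2, Isg15 and Oas3 hold a further match that starts within the capitals and runs on in lower case.
Lgals9 (chr11:78984955-78984993, minus strand): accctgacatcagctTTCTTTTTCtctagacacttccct
Bst2 (chr8:71537579-71537617, minus strand): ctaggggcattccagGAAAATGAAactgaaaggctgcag
Isg15 (chr4:156200873-156200911, minus strand): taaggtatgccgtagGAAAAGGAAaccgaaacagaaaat
Stat2 (chr10:128270262-128270300, plus strand): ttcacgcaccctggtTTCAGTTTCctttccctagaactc
Oas3 (chr5:120777711-120777749, minus strand): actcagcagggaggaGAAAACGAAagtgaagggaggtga
Rsad2 (chr12:26456548-26456586, minus strand): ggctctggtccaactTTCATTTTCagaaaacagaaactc
A match describes letters in a window and not a bound factor.

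The listed genes of the interferon-gamma response, measured only in treated cells, did not shift in one direction. Of 51 genes kept, 2 were called higher and 4 lower, where 2.32% of all genes were called higher and 1.07% lower. The median difference was 0.07, the same as for all genes. Without Ndufa4KO3, 6 were called higher and 5 lower, against 4.62% and 2.27% of all genes. Cxcl9, a chemokine that attracts activated T cells, was at 84.2, 79.6 and 72.7 TPM with Ndufa4l3-miR147 knocked out and at 240, 160 and 159 TPM with Ndufa4 knocked out, where replicate 1 was highest. Wild type, at 91.6 to 111 TPM, lay between them. The difference was -1.21 ± 0.15 (limma adjusted p = 0.0050), and -1.31 ± 0.16 without Ndufa4KO3. Cxcl10, which binds the same receptor, was at 793 to 936 TPM against 846 to 1082 TPM and was not called (-0.13 ± 0.10, limma adjusted p = 0.46, and -0.17 without Ndufa4KO3). Upp1, a uridine phosphorylase, was lower, at 90.5 to 104 TPM against 142 to 160 TPM (-0.65 ± 0.07, -0.64 without Ndufa4KO3), as were Slamf8 (-0.38 ± 0.05, -0.39 without Ndufa4KO3) and the adhesion receptor gene Icam1 (-0.23 ± 0.04, -0.25 without Ndufa4KO3). Gbp11, a guanylate-binding protein gene, was higher, at 11.3 to 13.9 TPM against 5.98 to 6.27 TPM (0.88 ± 0.10, 0.86 without Ndufa4KO3), as was the immunity-related GTPase gene Gm4841 (0.59 ± 0.11, 0.48 without Ndufa4KO3). The calls of Icam1 and Gm4841 were lost without any one of the Ndufa4l3-miR147 knockout libraries and without wild-type replicate 1 or 2.

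Of 15 genes of MHC class II presentation kept, 4 were lower in the Ndufa4l3-miR147 knockout and 1 was higher. Of all genes 1.07% were called lower and 2.32% higher. The higher gene was the protease gene Lgmn (0.25 ± 0.04, 0.23 without Ndufa4KO3, a call lost without any one of the Ndufa4l3-miR147 knockout libraries). Without Ndufa4KO3, 4 were again lower and 1 higher, where 2.27% of all genes were lower and 4.62% higher. The class II chain gene H2-Aa was at 210, 197 and 199 TPM with Ndufa4l3-miR147 knocked out and at 335, 291 and 298 TPM with Ndufa4 knocked out (-0.60 ± 0.06, limma adjusted p = 0.0020, and -0.63 without Ndufa4KO3). Cd74, the invariant chain that escorts class II molecules, was at 778, 797 and 778 TPM and at 1127, 1092 and 1265 TPM (-0.56 ± 0.06, -0.50 without Ndufa4KO3). H2-Ab1 (-0.52 ± 0.07, -0.46 without Ndufa4KO3) and the peptide exchange factor gene H2-DMb1 (-0.44 ± 0.06, -0.39 without Ndufa4KO3) were lower too. For these 4 genes the Ndufa4l3-miR147 knockout libraries lay close to wild type, except that all 3 were under wild type for Cd74, and the calls held in every model that left out 1 library. Ciita, the master activator of class II genes, was at 29.0 to 30.3 TPM against 31.4 to 34.8 TPM and was not called (-0.14 ± 0.06, limma adjusted p = 0.24, and -0.16 without Ndufa4KO3).

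Markers of dendritic cells, which carry much class II, also had a lower summed level in the Ndufa4l3-miR147 knockout. Over 12 genes it was 49.3 to 50.8 TPM in the Ndufa4l3-miR147 knockout, 71.6 to 99.98 TPM in the Ndufa4 knockout and 53.1 to 59.2 TPM in wild type. Most of it was 1 gene, Clec9a, at 32.9, 29.0 and 28.2 TPM against 73.4, 53.5 and 38.7 TPM, which was not called with all libraries (-0.81 ± 0.19, limma adjusted p = 0.053) and was called without Ndufa4KO3 (-1.04 ± 0.12). Batf3, a transcription factor of these cells, was lower (-0.61 ± 0.13, -0.53 without Ndufa4KO3), a call lost without any one wild-type or Ndufa4l3-miR147 knockout library and without Ndufa4 knockout replicate 2. The defining markers Flt3, Zbtb46 and Cd209a did not exceed 0.30 TPM in any knockout library. Their part in the class II result was not tested.

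Among genes of MHC class I presentation 4 of 25 were called higher and none lower (limma, 11 at an unadjusted p under 0.05 in either direction), where 2.32% of all genes were called higher and 20.6% had an unadjusted p under 0.05. Without Ndufa4KO3, 7 were higher. All 4 belong to the H2-Q cluster: H2-Q4 (0.36 ± 0.05, 0.40 without Ndufa4KO3), H2-Q5 (0.38 ± 0.08, 0.38 without Ndufa4KO3), H2-Q6 (0.78 ± 0.09, 0.76 without Ndufa4KO3) and H2-Q7 (0.55 ± 0.08, 0.59 without Ndufa4KO3). H2-Q6 was at 29.7 to 30.8 TPM against 15.5 to 19.6 TPM and was called in every model that left out 1 library, and the list had 2 called genes without any one of Ndufa4l3-miR147 knockout replicates 1, 2 and 3 and 3 without any one wild-type library. The call of H2-Q5 held only without Ndufa4KO3 among the models that left out 1 library. These genes are near-identical copies, so reads may be shared among them.

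Chemokine genes divided, with 5 of 16 called higher and 3 lower, where 2.32% of all genes were called higher and 1.07% lower. Without Ndufa4KO3, 6 were higher and 3 lower, against 4.62% and 2.27% of all genes. Ccl9, which attracts myeloid cells, was at 73.2, 75.9 and 82.0 TPM with Ndufa4l3-miR147 knocked out and at 49.3, 48.8 and 48.9 TPM with Ndufa4 knocked out (0.64 ± 0.06, limma adjusted p = 0.00090, and 0.64 without Ndufa4KO3). Ccl2 (0.36 ± 0.05, 0.35 without Ndufa4KO3), Ccl3 (0.62 ± 0.10, 0.56 without Ndufa4KO3), Ccl7 (0.41 ± 0.09, 0.38 without Ndufa4KO3) and Pf4 (0.33 ± 0.07, 0.37 without Ndufa4KO3) were also called higher. Ccl2 lost its call without replicate 1 or 2 of the Ndufa4l3-miR147 knockout and Ccl3 without replicate 1 or 3. Ccl7 and Pf4 lost theirs without any one wild-type or Ndufa4l3-miR147 knockout library, Ccl7 also without Ndufa4 knockout replicate 2 or 3 and Pf4 also without replicate 1 or 2. Cxcl16, a membrane-bound chemokine, was lower, at 206 to 217 TPM against 262 to 294 TPM (-0.40 ± 0.05, -0.37 without Ndufa4KO3), as was Ccl22 at 0.268 to 0.607 TPM against 1.17 to 1.47 TPM (-0.67 ± 0.14, -0.71 without Ndufa4KO3), a call that held only without Ndufa4KO3 among the models that left out 1 library. Of 21 cytokine and growth factor genes kept, Gdf15 and Spp1 were called higher, and without Ndufa4KO3 there were 3 higher. Spp1, which encodes osteopontin, was at 3802, 3400 and 3468 TPM against 2306, 1983 and 1927 TPM, one of the most abundant transcripts to differ (0.78 ± 0.07, limma adjusted p = 0.00095, and 0.73 without Ndufa4KO3). Its wild-type libraries, at 3779 to 3952 TPM, lay near the Ndufa4l3-miR147 knockout. Cd14, the coreceptor for lipopolysaccharide, was at 122 to 135 TPM against 81.9 to 88.1 TPM (0.57 ± 0.06, 0.59 without Ndufa4KO3), with wild type higher still at 149 to 160 TPM. It was the only called gene of 40 in the Toll-like receptor and NF-kB list with all libraries, where 3.39% of all genes were called. Without Ndufa4KO3, 3 of the list were higher and 1 lower, where 6.89% of all genes were called.

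Genes of lipid transport and storage included some of the largest differences in abundant transcripts. Of 26 kept, 5 were lower and 2 higher, where 1.07% of all genes were lower and 2.32% higher. Without Ndufa4KO3 the numbers were 6 and 4, against 2.27% and 4.62% of all genes. Apoe, the apolipoprotein that carries cholesterol out of macrophages, was at 2668, 2802 and 2845 TPM with Ndufa4l3-miR147 knocked out and at 4643, 5122 and 6145 TPM with Ndufa4 knocked out. Wild type, at 2951 to 3035 TPM, lay just above the former. The difference was -0.93 ± 0.09 (limma adjusted p = 0.0011), and -0.82 ± 0.05 without Ndufa4KO3, its highest library. Pltp, the phospholipid transfer protein gene, was at 290 to 301 TPM against 460 to 565 TPM (-0.77 ± 0.07, -0.68 without Ndufa4KO3), and Gpnmb, a lysosomal glycoprotein gene of lipid-laden macrophages, at 1362 to 1437 TPM against 1820 to 1986 TPM (-0.44 ± 0.04, -0.41 without Ndufa4KO3). Pla2g7, a lipase that hydrolyses platelet-activating factor, was at 11.9 to 13.6 TPM against 23.7 to 26.5 TPM (-0.88 ± 0.08, -0.91 without Ndufa4KO3), opposite to the lipase gene Lipg above. Apoe, Pltp, Gpnmb and Pla2g7 were called in each model that left out 1 library, as Lipg was. Lpl, which encodes lipoprotein lipase (-0.27 ± 0.06, -0.33 without Ndufa4KO3), and the higher gene Npc2 (0.19 ± 0.04, 0.21 without Ndufa4KO3) lost their calls without any one wild-type or Ndufa4l3-miR147 knockout library and without Ndufa4 knockout replicate 2.

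Genes of cholesterol synthesis and uptake tended to higher values without many calls. Of 24 kept, 3 were called higher and none lower (limma, 14 at an unadjusted p under 0.05), with a median difference of 0.31. Of all genes 2.32% were called higher and 20.6% had an unadjusted p under 0.05, with a median of 0.07. Without Ndufa4KO3 there were 9 higher and none lower (13 at an unadjusted p under 0.05), with a median of 0.23. Without Ndufa4l3-miR147 knockout replicate 1 or 2, and with the 6 knockout libraries alone, none of the 24 was called (10 with the 6 libraries at an unadjusted p under 0.05), and 1 was called without Ndufa4l3-miR147 knockout replicate 3, while leaving out Ndufa4 knockout replicate 2 gave 6. Cyp51, a sterol demethylase gene, was at 16.5 to 19.6 TPM with Ndufa4l3-miR147 knocked out and at 11.6 to 12.8 TPM with Ndufa4 knocked out (0.50 ± 0.08, limma adjusted p = 0.014, and 0.46 without Ndufa4KO3). The synthesis gene Lss was also called (0.49 ± 0.10, 0.45 without Ndufa4KO3), a call lost without any one wild-type or Ndufa4l3-miR147 knockout library and without Ndufa4 knockout replicate 1. For Cyp51 both knockouts lay below wild type, which was at 22.7 to 24.1 TPM. The desaturase genes Scd2 (0.71 ± 0.14, 0.54 without Ndufa4KO3) and Fads2 (0.50 ± 0.09, 0.45 without Ndufa4KO3) showed the same order, with wild type highest, and the call of Fads2, as that of Cyp51, was lost without replicate 1 or 2 of the Ndufa4l3-miR147 knockout. The call of Scd2 was lost without any one wild-type or Ndufa4l3-miR147 knockout library. Dbi, which encodes the acyl-CoA-binding protein, was lower instead, at 127, 112 and 131 TPM against 208, 219 and 239 TPM (-0.84 ± 0.07, -0.78 without Ndufa4KO3).

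Targets of the integrated stress response, which slows translation and raises ATF4, were higher for 6 of 21 kept and lower for none, with a median difference of 0.24 (limma, 14 at an unadjusted p under 0.05), where 2.32% of all genes were called higher, 20.6% had an unadjusted p under 0.05 and the median was 0.07. Without Ndufa4KO3 there were 10 higher and 1 lower, with a median of 0.30. After median-of-ratios scaling 2 were higher and 1 lower, and without Ndufa4l3-miR147 knockout replicate 1, 2 or 3 there were 2, 2 and 1. Gdf15, a secreted stress signal, was at 8.96, 8.59 and 9.28 TPM with Ndufa4l3-miR147 knocked out and at 2.66, 4.29 and 4.06 TPM with Ndufa4 knocked out (1.11 ± 0.14, limma adjusted p = 0.0056, and 1.18 without Ndufa4KO3), and it held its call in all these models. Its wild-type libraries were higher still, at 9.47 to 11.5 TPM. Atf4 was at 241 to 251 TPM against 180 to 206 TPM (0.35 ± 0.05, 0.41 without Ndufa4KO3), and Ddit3, which encodes CHOP, at 133 to 140 TPM against 94.9 to 114 TPM (0.42 ± 0.07, 0.50 without Ndufa4KO3). Sesn2 (0.56 ± 0.08, 0.55 without Ndufa4KO3), Trib3 (0.42 ± 0.09, 0.42 without Ndufa4KO3) and Atf3 (0.28 ± 0.05, 0.30 without Ndufa4KO3) completed the 6. Atf4, Ddit3, Trib3 and Atf3 lost their calls without any one of Ndufa4l3-miR147 knockout replicates 1, 2 and 3, and Sesn2 without replicate 3 of that knockout. Atf3 also lost its call without wild-type replicate 2, and Trib3 without any one wild-type library or Ndufa4 knockout replicate 1 or 2. Asns, the asparagine synthetase gene that ATF4 controls, was at 51.6 to 54.2 TPM against 50.2 to 54.2 TPM (0.03 ± 0.05, limma adjusted p = 0.79, and 0.06 without Ndufa4KO3). The ATF4 site searched as TGATGNAAT was in 1 of 20 matched promoters of this list, and the sterol element TCACCCCAC in 1 of 17 of the cholesterol list, against 0.965% and 0.551% of all promoters and 0.515% and 0.723% of those of tested genes. Of the members called higher with a matched promoter, 0 of 6 and 0 of 2 held it.

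Complex IV is the complex to which Ndufa4 binds. Of its 41 subunits and assembly factors kept, none was called (limma, 3 at an unadjusted p under 0.05). The list leaves out AA467197 (Ndufa4l3), which was called at -6.95 as given above, and it includes the relative Ndufa4l2. Of all genes 3.39% were called and 20.6% had an unadjusted p under 0.05. No call in a list of this size is near the share of all genes called. The share of the list at an unadjusted p under 0.05 was below that of all genes. The median difference was -0.01 and it was 0.04 without Ndufa4KO3, where none was called either (limma, 6 at an unadjusted p under 0.05). Cox4i1 was at 969 to 1050 TPM against 852 to 1195 TPM (-0.00 ± 0.10, limma adjusted p = 0.99, and 0.11 without Ndufa4KO3), and Cox6a1 overlapped likewise (-0.01 ± 0.12, 0.12 without Ndufa4KO3). None of 35 complex I genes or 32 genes of complexes II, III and V was called, again near the 3.39% of all genes called. An unadjusted p under 0.05 was reached by 2 and 4 of them (limma), in both lists a share below the 20.6% of all genes. Without Ndufa4KO3, 2 complex I genes were higher. Of the 13 mRNAs made in mitochondria, mt-Nd3 was lower, at 1219 to 1348 TPM against 1459 to 1693 TPM (-0.29 ± 0.06, -0.28 without Ndufa4KO3), a call lost without any one wild-type or Ndufa4l3-miR147 knockout library and without Ndufa4 knockout replicate 1. The median of the 13 was -0.20 with and without Ndufa4KO3, and mt-Co1, the catalytic subunit, was not called (-0.07 ± 0.07, -0.13 without Ndufa4KO3). Glycolysis (21 genes), the hypoxia response (20) and the citric acid cycle with fatty acid oxidation (35) had no called gene with all libraries (limma, 5, 2 and 3 at an unadjusted p under 0.05), and glycolysis had 1 lower without Ndufa4KO3. These are differences in transcript levels, and no protein or respiration was measured in these files.

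Among surface and matrix genes, Itgb2, the β chain shared by leukocyte integrins, was at 533 to 540 TPM with Ndufa4l3-miR147 knocked out and at 643 to 658 TPM with Ndufa4 knocked out, a small difference with little spread (-0.27 ± 0.04, limma adjusted p = 0.0054, and -0.28 without Ndufa4KO3). Adam8, a membrane metalloprotease gene, was at 315 to 329 TPM against 392 to 410 TPM (-0.32 ± 0.04, -0.32 without Ndufa4KO3), and wild type was lower than both, at 229 to 234 TPM. Acvrl1, a receptor of the BMP family, was lower as well (-0.48 ± 0.06, -0.49 without Ndufa4KO3). Gas6, a ligand that bridges apoptotic cells to phagocytes, was higher, at 100 to 108 TPM against 62.3 to 73.7 TPM (0.62 ± 0.07, 0.68 without Ndufa4KO3), and Mfge8, another bridging protein gene, was lower (-0.40 ± 0.06, -0.36 without Ndufa4KO3), a call lost without any one Ndufa4l3-miR147 knockout library. The gene of γ-actin, Actg1, was at 1730 to 1745 TPM against 2073 to 2225 TPM (-0.32 ± 0.04, -0.35 without Ndufa4KO3). Lyz2, the abundant lysozyme of macrophages, was at 4041 to 4172 TPM against 5223 to 5675 TPM (-0.40 ± 0.04, limma adjusted p = 0.0018, and -0.41 without Ndufa4KO3), with wild type between them at 4509 to 4660 TPM. Of 85 ribosomal protein genes, 1 was called, Rpl14 (-0.26 ± 0.06, -0.20 without Ndufa4KO3), where 3.39% of all genes were called. The call was lost without any one wild-type or Ndufa4l3-miR147 knockout library and without Ndufa4 knockout replicate 2. The median of the list was -0.14, against 0.07 for all genes, and 6 of the 85 were above 0, against 66.2% of all genes. An unadjusted p under 0.05 was reached by 37 of the 85 (limma), against 20.6% of all genes. The knockout libraries did not overlap for 35 of the 85, against 25.4% of all genes. Without Ndufa4KO3 there were 2 lower (limma, 26 at an unadjusted p under 0.05), with a median of -0.07. Of all genes 2.27% were then lower and 23.4% had an unadjusted p under 0.05, with a median of 0.03. Of 16 iron genes, Steap3 and the exporter gene Slc40a1 (0.83 ± 0.17, 0.68 without Ndufa4KO3) were higher, where 2.32% of all genes were. Without Ndufa4KO3 there were 3 higher, against 4.62% of all genes. For Slc40a1 the call was lost without wild-type replicate 1, 2 or 3 and without Ndufa4l3-miR147 knockout replicate 2 or 3.

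Several of the largest differences lay on chromosome 1, where 34 of 654 genes were called (5.20%, against 3.39% of all genes) and 6 of the 18 calls of at least 2-fold lay. Without Ndufa4KO3, 63 of the 654 were called (9.63%, against 6.89% of all genes), 7 of them at least 2-fold. In the 10 Mb window from 130 to 140 Mb, 8 of 62 genes were called (12.9%), 3 of them at least 2-fold, and in the adjoining window from 120 to 130 Mb 4 of 21 were called, 2 of them at least 2-fold. Without Ndufa4KO3 these windows had 12 and 5 called genes. Ctse (ENSMUSG00000004552.16, GRCm38 chromosome 1, 131638306 to 131675505, plus strand) lies in the first of these with 5430435G22Rik, whose start is 0.0504 Mb from that of Ctse. 5430435G22Rik was at 115, 106 and 126 TPM with Ndufa4l3-miR147 knocked out and at 284, 282 and 261 TPM with Ndufa4 knocked out (-1.25 ± 0.07, limma adjusted p = 3.7e-05), and at -1.29 ± 0.07 without Ndufa4KO3. Its direction was thus opposite to that of its neighbour. Ppfia4 is 2.66 Mb and Nav1, a neuronal guidance gene, 3.80 Mb further along, and Nav1 was higher (0.93 ± 0.11, 0.79 without Ndufa4KO3). Kif21b, Dyrk3, Fam72a and Phlda3 were the other called genes of this window, all higher. All 4 lost their calls without replicate 1 or 2 of the Ndufa4l3-miR147 knockout, and Kif21b, Fam72a and Phlda3 also without its replicate 3, and Phlda3 without wild-type replicate 2. Steap3 and Dbi lie 11.4 and 11.5 Mb before Ctse, and Cxcr4 3.05 Mb before it. Wdfy1, 51.9 Mb before Ctse, was the 1 called gene of 5 kept from a list of genes known to differ between C57BL/6 substrains. Without Ndufa4KO3, 1 gene of that list was higher and 1 lower. No sequence variant was measured in these files, so a difference in strain background and the knockout itself cannot be told apart.

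**Figure D5:**
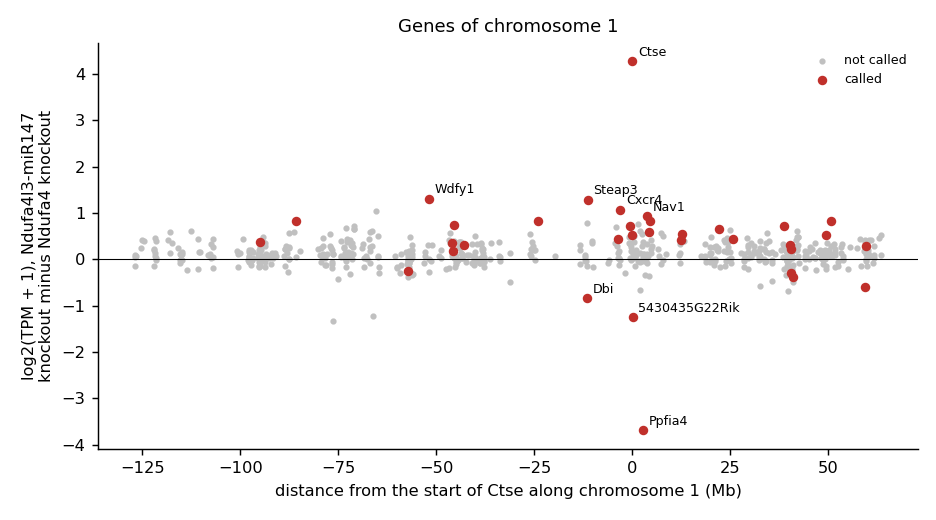
Difference between the knockouts (log2(TPM + 1), Ndufa4l3-miR147 knockout minus Ndufa4 knockout) for the 654 tested genes of chromosome 1 against the distance of their start from that of Ctse in Mb, with called genes in red. Ctse, Ppfia4 and 5430435G22Rik lie within 3 Mb of each other, and Steap3, Dbi and Cxcr4 within 12 Mb before them.

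The libraries carried the markers of macrophages. Csf1r was at 915 to 975 TPM, Cd68 at 2211 to 2640 TPM and C1qa at 2043 to 2485 TPM in the 6 knockout libraries, with none of the 3 called between them. Without Ndufa4KO3, Cd68 was called higher (0.15 ± 0.03). Of the 12 listed macrophage markers kept, Cd14 was called higher and Lyz2 lower, as given above, where 3.39% of all genes were called. Without Ndufa4KO3, 4 of the 12 were higher and 2 lower, where 6.89% of all genes were called. Tyrobp, which macrophages express, was listed at 0 in every library. Markers of other cells varied among the libraries of one knockout. Neutrophil markers summed to 50.5 to 87.6 TPM in the Ndufa4l3-miR147 knockout and to 13.3 to 53.1 TPM in the Ndufa4 knockout. Fibroblast markers summed to 59.3 to 72.1 TPM and to 20.9 to 190 TPM, and Col3a1 was at 29.3, 2.12 and 116 TPM in Ndufa4 knockout replicates 1, 2 and 3. No gene of either list was called (limma, 0 at an unadjusted p under 0.05 in either list), with or without Ndufa4KO3. Of 5 erythroid and mast cell markers kept 1 was called higher, and of 5 osteoclast markers 1 was called lower. Of all genes 2.32% were higher and 1.07% lower. Without Ndufa4KO3 the numbers were 1 higher and 2 lower, against 4.62% and 2.27% of all genes. Neither list had a call in any other model that left out 1 library. Of the lymphocyte markers, Cd3e was listed at 0 in all 6 libraries and Ighm was at 26.9 to 31.2 TPM.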

How the data were processed

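RNA was sequenced from 9 macrophage samples, 3 for each genotype. The authors deposited 1 table of TPM. The tools named in the submitters' processing notes are kallisto, which estimates transcript abundance, DESeq2 and edgeR, and the builds named are mm10 and GRCm39. Versions, the role of each tool, annotation and read filters are stated nowhere in the sources used here. TPM in the table summed to 913474 to 921678 per library. An unnamed entry, with 0.00277% of a library or less, was dropped. TPM keep no read depth, and a gain in abundant genes lowers all other values.

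Genes that met the rule given in the opening were transformed to log2(TPM + 1). limma 3.58.1 (R 4.3.3) was fitted to all 9 libraries with 1 mean per genotype and an intensity trend, tested on simulated data first. The call threshold was an adjusted p (Benjamini-Hochberg, two-sided) of 0.05. Alternatives were other filters, pseudocounts, scalings, weights, a length correction, a replicate block, fewer libraries and each library left out.

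Named genes were the targeted genes and Ndufa4l2, the 15 called genes with the largest difference in each direction (at least 5 TPM, no overlap, no symbols of unnamed models), the 5 most abundant called genes in each direction, up to 2 called members per direction of each list or else its 2 most abundant members, up to 4 called genes in each direction with an 8-base miR-147 match, and the called genes of the window with most 2-fold calls. Genes outside this rule were chosen after their values were seen. The members and the 48 lists (1327 of 1331 entries found) were chosen with earlier results of these data known. Positions come from GENCODE M21 (GRCm38), and promoter and miRNA sequences from RefSeq (GRCm38.p6). Correlations between same-numbered libraries of the knockouts were 0.000322 to 0.172 and not all above 0.1, so the numbers were not used as pairs. Some single-gene and sequence results are not reported here.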

Additional observations from a re-analysis of the deposited data

Results flagged for a closer look

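In 35 of the named genes the 2 knockouts lay on opposite sides of wild type, with all 3 libraries of one above and all 3 of the other below every wild-type library. The difference between the knockouts is the tested contrast of the report, and the position on opposite sides was not itself tested. Both knockouts were set against the same wild-type libraries. Among all 370 called genes, 61 had the Ndufa4l3-miR147 knockout above and the Ndufa4 knockout below wild type, and 30 had the reverse. Among all 10899 tested genes the numbers were 120 and 49.

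The genes with the Ndufa4l3-miR147 knockout above wild type had these differences between the knockouts on the log2 scale. Largest was Ctse at 4.27. Wdfy1 was at 1.31, Steap3 at 1.29, Inpp4b at 1.22, Lipg at 1.17 and Ms4a4c at 1.06. Between 0.8 and 1 were Mid1 at 0.95, Tnfsf8 at 0.94, Nav1 at 0.93, Isg20 at 0.91, Mmp13 at 0.88 and Kif21b at 0.83. Lower still were H2-Q6 at 0.78, Fam46c at 0.75, Irf7 at 0.67, Ccl9 at 0.64 and Bst2 at 0.50. Small differences were those of Lgmn at 0.25, Itgb5 at 0.24, Sqstm1 at 0.23 and Npc2 at 0.19.

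The genes with the Ndufa4l3-miR147 knockout below wild type were led by the targeted AA467197 at -6.95. Ppfia4 was at -3.69, 5430435G22Rik at -1.25, Cxcl9 at -1.21 and Bst1 at -1.01. Col18a1 was at -0.97, Apoe at -0.93, Pla2g7 at -0.88, Pltp at -0.77, Cd74 at -0.56 and Lyz2 at -0.40. The smallest were Rpl14 at -0.26, Eef1a1 at -0.20 and Hspa8 at -0.18.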

How the results depend on the processing

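The count of 370 called genes (253 higher, 117 lower, 18 at least 2-fold) moved with the libraries and weights in the model. Leaving out 1 library in turn gave 85 to 751 calls, 48 to 504 higher and 37 to 247 lower, and 13 to 28 of at least 2-fold, with the lowest counts without Ndufa4l3-miR147 knockout replicate 1 and the most calls without Ndufa4 knockout replicate 3. Array weights gave 1795 (1150 higher, 645 lower, 66 at least 2-fold), with a weight of 0.0975 for Ndufa4 knockout replicate 3. The 6 knockout libraries alone gave 64 (42 and 22), and the 5 without that replicate, an alternative chosen after seeing the data, 215 (144 and 71). No filter on low values gave 165 higher, median-of-ratios scaling 151 higher, the length correction 216 lower and quantile normalization 195 lower. The cause of these moves was not tested. The replicate block gave 167 calls (106 higher, 61 lower). Same-numbered libraries of the knockouts correlated at 0.000322 to 0.172, and 4 of 6 correlated best with their own number. Of the 99 named genes called, 41 were called in every model that left out 1 library and 36 in all 19 alternatives set up at the start, and none of the 99 changed direction in any alternative. Of the 24 named genes tested and not called, 15 changed sign in at least 1 alternative, 5 of them without Ndufa4 knockout replicate 3. The 6 knockout libraries alone lost 63 of the 99 calls and median-of-ratios scaling 16. TPM carry no depth, so precision at low values rests on 3 libraries per genotype.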
